A study of Homo sapiens with 12 samples.

Results

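The BCL2 family decides whether a cell opens the outer membrane of its mitochondria and dies by apoptosis, and 10 of its genes were followed here: the BH3-only genes BMF, BCL2L11, BBC3, PMAIP1 and BID, the pro-survival genes BCL2, BCL2L1 and MCL1, and the effector genes BAX and BAK1. They were found by gene name among 58051 genes in the table, and all 10 had enough counts to be among the 17774 genes tested. The cells were NB-1, an established neuroblastoma cell line with amplified MYCN and ALK, kept in culture for 48 h with both 0.5 µM BEZ-235 and 0.5 µM SAHA, with 0.5 µM BEZ-235 alone, with 0.5 µM SAHA alone, or with the solvent DMSO and neither drug. BEZ-235 (dactolisib) is an inhibitor of PI3K and mTOR kinases, and SAHA (vorinostat) is one of histone deacetylases. There were 3 biological replicates per group, and their polyadenylated RNA was sequenced. All 12 libraries came from 1 cell line, so the values describe these cells and not neuroblastoma at large.

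Pro-survival proteins hold back the effectors BAX and BAK, which otherwise assemble into pores in the outer mitochondrial membrane and let cytochrome c out. BH3-only proteins respond to stress by occupying the groove of the pro-survival proteins, and some of them also activate the effectors directly. Much of this control acts on proteins, through binding, cleavage, phosphorylation and rapid turnover, and only RNA was measured here. In RNA from whole cultures, a change in the mix of cells and a change in RNA per cell cannot be told apart.

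Library totals ran between 17662944 and 79543539 counts (median 20407979.5), and the deepest was SAHA replicate 2. Members had between 91 and 26539 counts per library. Levels are CPM, counts relative to the library total, scaled between libraries by the TMM method, and changes are log2 fold changes ± SE from edgeR's quasi-likelihood test. Adjusted p-values are Benjamini-Hochberg values over all genes tested, 2-sided, and a gene was called at an adjusted p under 0.05. All 10 neuroblastoma marker genes had counts in each group, though DBH averaged 0.951 ± 0.159 CPM with SAHA. Their summed levels were 6657.7 to 8182.7 CPM in the combination, 7273.3 to 7559.9 CPM with BEZ-235, 5915.5 to 6225.2 CPM with SAHA and 6622.3 to 7200.5 CPM in DMSO. ALK was the highest of them in every group. Against DMSO, 3 of the 10 were called higher and 3 lower with both drugs (33.2% and 31.2% of all tested genes). BEZ-235 had 3 higher and 3 lower (25.5% and 25.4%), and SAHA 1 higher and 4 lower (22.2% and 20.9%). The Schwann cell genes SOX10 and CDH19 were at 0 in all libraries, the 6 Schwann cell markers summed to at most 9.10 CPM, and the 6 leukocyte markers summed to at most 1.34 CPM. The 7 fibroblast markers, none of them at 0 in all libraries, summed to 173.8 to 194.8 CPM in the combination, 36.0 to 40.4 CPM with BEZ-235, 417.6 to 468.5 CPM with SAHA and 103.9 to 114.4 CPM in DMSO. Against DMSO, 4 of the 7 were called higher and 2 lower with both drugs, 3 lower with BEZ-235 and 5 higher with SAHA. LUM, the lumican gene, was the highest of these markers in every group except BEZ-235, where THY1 was, at 15.1 ± 1.63 CPM. LUM stood at 94.6 ± 19.9 CPM in the combination, 10.7 ± 1.57 CPM with BEZ-235, 327.5 ± 12.2 CPM with SAHA and 60.7 ± 3.00 CPM in DMSO (SD, n = 3 each). The part of the fibroblast markers in the results below was not tested. Counts followed the GC content of transcripts differently in the combination, measured relative to each gene's mean log2 level over the 12 libraries. On that relative scale, the log2 step from transcripts of 40% to 60% GC was 0.40 to 0.88 in the 3 combination libraries. It was -0.40 to -0.01 in the other 9. Values after a correction for GC content and length are therefore given where they altered the call of a member, or the size of a called change by over 1.5 times.

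Promoter windows show the DNA upstream of 3 members that the results turn on: BMF, the member with the largest change, BCL2L11, which is known to be switched on by FOXO factors, and BAX, whose window held the most matches. They run from 250 bases before to 50 after the start in RefSeq (GRCh38.p14), 5′ to 3′ on the strand of the gene, at chr15:40108830-40109129 on the minus strand for BMF, chr2:111120664-111120963 on the plus strand for BCL2L11 and chr19:48954625-48954924 on the plus strand for BAX. Capitals mark GTAAACA, a forkhead (FOXO) motif, in BCL2L11 and CACGTG, the E-box bound by MYC family factors, in BAX.
BMF: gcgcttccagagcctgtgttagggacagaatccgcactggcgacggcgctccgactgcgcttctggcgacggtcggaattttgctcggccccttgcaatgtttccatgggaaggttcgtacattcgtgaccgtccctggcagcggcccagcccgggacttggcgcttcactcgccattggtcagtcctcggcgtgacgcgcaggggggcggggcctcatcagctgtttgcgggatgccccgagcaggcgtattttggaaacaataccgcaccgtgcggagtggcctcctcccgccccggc
BCL2L11: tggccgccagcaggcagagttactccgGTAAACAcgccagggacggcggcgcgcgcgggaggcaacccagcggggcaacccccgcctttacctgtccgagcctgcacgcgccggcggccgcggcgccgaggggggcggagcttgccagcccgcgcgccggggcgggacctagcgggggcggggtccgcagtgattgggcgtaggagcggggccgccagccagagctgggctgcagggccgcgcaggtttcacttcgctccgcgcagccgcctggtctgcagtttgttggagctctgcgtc
BAX: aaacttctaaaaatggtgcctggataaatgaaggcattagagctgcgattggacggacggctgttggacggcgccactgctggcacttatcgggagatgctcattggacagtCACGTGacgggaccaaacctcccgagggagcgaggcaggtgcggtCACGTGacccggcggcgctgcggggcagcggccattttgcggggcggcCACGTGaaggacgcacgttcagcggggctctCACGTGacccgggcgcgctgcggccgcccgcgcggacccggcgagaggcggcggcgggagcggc
In the 15 windows of 9 members, 4 motifs were searched on both strands: the forkhead motif GTAAACA, the E-box CACGTG, which reads the same on both strands, the motif TGACGT of CREB and ATF factors, and the motif TGATGNAA of ATF4 and CHOP. No matches of different motifs overlapped. BCL2L11 held GTAAACA at base -223 counted from the start. BAX held CACGTG at bases -138, -93, -45 and -14. BBC3 held CACGTG at -232, PMAIP1 held TGACGT on the opposite strand at -56, and BID held 1 CACGTG, at bases -106 and -47 of a pair of overlapping windows among its 5. None of the 4 motifs was found in the windows of BMF, BCL2, BCL2L1 and BAK1, which says only that these letters are not in these windows. Of all 35116 windows of this length, 3.42% held the forkhead motif, 7.26% the E-box, 7.98% the CREB and ATF motif and 3.62% the ATF4 and CHOP motif.

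With both drugs against DMSO, 9 of the 10 members were called, where 64.4% of all tested genes were, with 5 higher (33.2% of all genes) and 4 lower (31.2% of all genes). BMF, BCL2, BBC3, BCL2L11 and BCL2L1 were higher, and BID, PMAIP1, MCL1 and BAX were lower. The median change of the members was 0.07 against 0.03 over all genes tested. For 9 members the libraries of the 2 groups did not overlap, as for 66.2% of all genes. By role, 3 BH3-only genes rose and 2 fell, 2 pro-survival genes rose and 1 fell, and BAX fell while BAK1 stood at -0.16 ± 0.12 (adjusted p = 0.256).

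With BEZ-235 alone, 9 members were called, against 50.9% of all tested genes, with 4 higher (25.5% of all genes) and 5 lower (25.4%). BMF, BCL2, BCL2L11 and BCL2L1 were higher, and PMAIP1, BAX, BAK1, MCL1 and BID were lower, with a median of -0.11 against 0.02 over all genes. The libraries did not overlap for 9 members (59.2% of all genes). SAHA alone had 5 members called, where 43.1% of all genes were, and BMF was the only one called higher (22.2% of all genes). BID, BAX, BAK1 and BCL2L1 were called lower with SAHA (4 members, against 20.9% of all genes), and the median was -0.23 against -0.01 over all genes. For 7 members the SAHA and DMSO libraries did not overlap (54.2% of all genes). The 3 comparisons share the DMSO libraries.

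**Figure D1:**
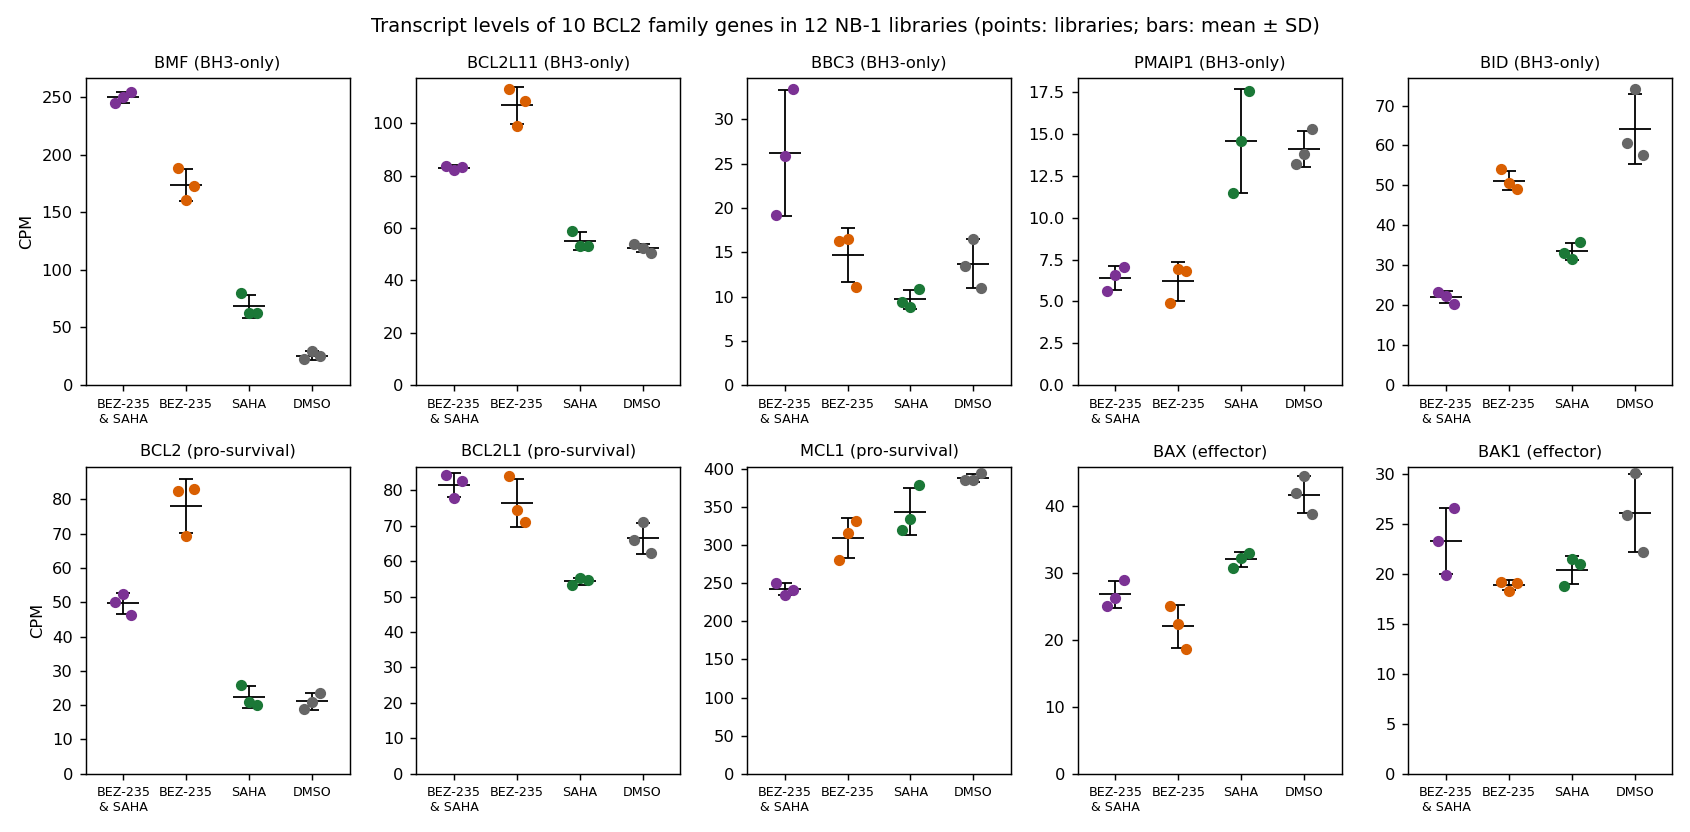
Levels of the 10 genes in CPM (vertical axes, each from 0) for the 4 groups, with a point per library and bars for the mean and SD of 3 libraries. BMF stood at 244.8 to 254.3 CPM in the combination and 22.3 to 29.3 CPM in DMSO, with both single drugs between, while BID ran the other way, at 20.4 to 23.4 CPM in the combination and 57.5 to 74.1 CPM in DMSO.

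BMF (ENSG00000104081, chromosome 15, 40087890 to 40108892, minus strand, build hg38) encodes a BH3-only protein that is held on the cell's cytoskeleton through a dynein light chain and binds pro-survival proteins once released. Its level was 244.8, 250.0 and 254.3 CPM in the combination libraries, 188.3, 160.3 and 172.3 CPM with BEZ-235, 79.7, 62.5 and 62.3 CPM with SAHA, and 22.3, 29.3 and 25.2 CPM in DMSO. The 4 groups lay in this order from high to low with no overlap between any of them. Against DMSO, BMF was 9.75-fold higher with both drugs (3.28 ± 0.12, adjusted p = 1.15e-12), 6.78-fold higher with BEZ-235 (2.76 ± 0.11, adjusted p = 1.23e-11) and 2.65-fold higher with SAHA (1.41 ± 0.11, adjusted p = 7.12e-08). Each of these 3 changes was the largest rise among the 10 members in its comparison. SAHA added to BEZ-235 gave a further 1.44-fold (0.52 ± 0.10, adjusted p = 3.88e-04), which fell to 0.20 ± 0.08 after the GC correction (adjusted p = 0.0476). BEZ-235 added to SAHA gave 3.67-fold (1.88 ± 0.11, adjusted p = 4.92e-10). The antisense gene BMF-AS1 reached at most 0.32% of the level of BMF in any group.

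The rise of BMF with both drugs was smaller than the sum of the single changes on the log2 scale. This interaction, which is 0 where the log2 change with both drugs equals the sum of the single ones, was -0.88 ± 0.15 (adjusted p = 4.80e-04) and -1.10 ± 0.12 after the GC correction (adjusted p = 3.17e-05).

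BCL2L11 (ENSG00000153094, chromosome 2, 111119378 to 111168447, plus strand) encodes BIM, which binds all pro-survival members and can activate the effectors. It stood at 83.6, 82.0 and 83.4 CPM in the combination, 113.0, 99.0 and 108.5 CPM with BEZ-235, 58.9, 53.1 and 53.0 CPM with SAHA, and 50.6 to 53.7 CPM in DMSO. BEZ-235 alone gave the highest libraries, the combination came next, and SAHA and DMSO overlapped. Against DMSO the change was 0.67 ± 0.07 with both drugs (adjusted p = 7.93e-07), 1.03 ± 0.07 with BEZ-235 (adjusted p = 1.04e-08) and 0.07 ± 0.07 with SAHA (adjusted p = 0.455). Unlike BMF, BCL2L11 was lower in the combination than after BEZ-235 by itself (-0.36 ± 0.07, adjusted p = 4.57e-04), while against SAHA alone it was higher by 0.60 ± 0.07 (adjusted p = 4.23e-06). Its interaction of -0.44 ± 0.10 (adjusted p = 0.00394) was -0.26 ± 0.09 and not called after the GC correction (adjusted p = 0.0569). The gene lies within MIR4435-2HG on the opposite strand, whose level was 10.5% of that of BCL2L11 in the combination, 3.30% with BEZ-235, 21.4% with SAHA and 10.8% in DMSO. The strand setting of the counting is not given in the sources used here, so reads of the pair may not be fully told apart.

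BBC3 (ENSG00000105327, chromosome 19, 47220822 to 47232766, minus strand) encodes PUMA, a BH3-only protein that binds all the pro-survival proteins. It stood at 19.2, 25.9 and 33.4 CPM in the combination, 16.3, 16.5 and 11.1 CPM with BEZ-235, 9.36, 8.86 and 10.9 CPM with SAHA, and 13.4, 16.5 and 11.0 CPM in DMSO. The combination libraries were above all others but spread widely, and BEZ-235 overlapped DMSO. BBC3 was 1.92-fold higher with both drugs than in DMSO (0.94 ± 0.21, adjusted p = 0.00114), 0.84 ± 0.21 above BEZ-235 (adjusted p = 0.00297) and 1.44 ± 0.21 above SAHA (adjusted p = 4.33e-05). Its interaction of 1.34 ± 0.29 was the largest of the members (adjusted p = 0.00319). With 69.7% GC in its longest transcript, BBC3 was also the most GC-rich member, and the GC correction left 0.26 ± 0.09 of the difference from DMSO (adjusted p = 0.0175) and 0.39 ± 0.09 of that from SAHA (adjusted p = 0.00163). Against BEZ-235 it turned to -0.19 ± 0.09 (adjusted p = 0.0851), and the interaction to -0.07 ± 0.13 (adjusted p = 0.776). With SAHA alone BBC3 was below all DMSO libraries but not called (-0.50 ± 0.21, adjusted p = 0.0727), and after the correction it was at -0.12 ± 0.09 (adjusted p = 0.283). The uncorrected fall passed without DMSO replicate 3 (-0.63, adjusted p = 0.0401), BEZ-235 replicate 3 (0.0475) or combination replicate 1 or 3 (0.0339 and 0.0375). It also passed with DESeq2 (adjusted p = 0.0441), with no filter on low counts (0.00162) and in a fit of SAHA and DMSO alone (0.0166). The change with BEZ-235 alone, 0.10 ± 0.21 as deposited (adjusted p = 0.724), was 0.45 ± 0.09 after the correction (adjusted p = 5.65e-04).

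PMAIP1 (ENSG00000141682, chromosome 18, 59899948 to 59904306, plus strand) encodes NOXA, a BH3-only protein that binds mainly MCL1. It had the lowest single count of the 10 genes, 91 in a BEZ-235 library. Its level was 5.63, 6.56 and 7.06 CPM in the combination, 4.88, 6.95 and 6.79 CPM with BEZ-235, 11.5, 14.6 and 17.6 CPM with SAHA, and 13.2, 13.8 and 15.3 CPM in DMSO. Both groups with BEZ-235 lay below both groups without it, and within each pair the libraries overlapped. PMAIP1 fell with both drugs (-1.13 ± 0.17, adjusted p = 1.69e-05) and with BEZ-235 (-1.18 ± 0.17, adjusted p = 2.11e-05) against DMSO, and was at 0.06 ± 0.15 with SAHA (adjusted p = 0.801). Against SAHA the combination was at -1.19 ± 0.16 (adjusted p = 1.30e-05). After the GC correction the fall with both drugs was -0.60 ± 0.14 against DMSO (adjusted p = 0.00141) and -0.57 ± 0.14 against SAHA (adjusted p = 0.00261). The correction also made the difference between the combination and BEZ-235 0.57 ± 0.15 (adjusted p = 0.00488), against 0.05 ± 0.18 as deposited (adjusted p = 0.836). PMAIP1 had the lowest GC content of the members, 37.2%.

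BID (ENSG00000015475, chromosome 22, 17734138 to 17774770, minus strand) encodes the protein that caspase-8 cleaves to carry death receptor signals to mitochondria. It stood at 23.4, 22.2 and 20.4 CPM in the combination, 54.0, 50.5 and 49.2 CPM with BEZ-235, 33.1, 31.5 and 35.7 CPM with SAHA, and 60.6, 74.1 and 57.5 CPM in DMSO. No groups overlapped, and the combination was the lowest. BID fell to 0.343 of its DMSO level with both drugs (-1.54 ± 0.10, adjusted p = 1.54e-09) and to 0.522 with SAHA (-0.94 ± 0.10, adjusted p = 1.30e-06). With BEZ-235 it was lower by a small margin (-0.32 ± 0.10, adjusted p = 0.0107), a call that was lost without DMSO replicate 2 (-0.22, adjusted p = 0.0636). The combination was lower than either single drug, at -1.22 ± 0.10 against BEZ-235 (adjusted p = 6.74e-08) and -0.60 ± 0.10 against SAHA (adjusted p = 8.79e-05). The interaction of -0.28 ± 0.14 did not pass (adjusted p = 0.126) and passed without DMSO replicate 2 (-0.41, adjusted p = 0.0206).

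Among the pro-survival genes, BCL2 (ENSG00000171791, chromosome 18, 63123346 to 63320128, minus strand), the founding member of the family, changed the most with both drugs and with BEZ-235. It stood at 50.0, 52.5 and 46.4 CPM in the combination, 82.4, 69.2 and 83.1 CPM with BEZ-235, 26.0, 21.0 and 20.1 CPM with SAHA, and 18.8, 20.8 and 23.6 CPM in DMSO. The order was that of BCL2L11, with BEZ-235 alone highest, the combination between, and SAHA overlapping DMSO. BCL2 was 2.35-fold higher with both drugs (1.23 ± 0.11, adjusted p = 8.87e-08) and 3.71-fold higher with BEZ-235 (1.89 ± 0.11, adjusted p = 1.12e-09) than in DMSO, and at 0.07 ± 0.11 with SAHA (adjusted p = 0.638). With SAHA added to BEZ-235 it was lower than with BEZ-235 by itself (-0.66 ± 0.11, adjusted p = 7.59e-05), and the interaction was -0.73 ± 0.16 (adjusted p = 0.00211). The interaction was -0.50 ± 0.13 after the GC correction and was still called (adjusted p = 0.0135).

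BCL2L1 (ENSG00000171552, chromosome 20, 31664452 to 31723989, minus strand) encodes BCL-XL and, by another splice site, the short form BCL-XS that favours death. Gene counts add such isoforms together, as they do for MCL1 and BCL2L11. BCL2L1 stood at 84.4, 77.7 and 82.5 CPM in the combination, 84.1, 74.5 and 71.0 CPM with BEZ-235, 53.2, 55.2 and 54.6 CPM with SAHA, and 65.9, 71.0 and 62.3 CPM in DMSO. SAHA alone was lowest, and the combination overlapped BEZ-235. The fall with SAHA was -0.29 ± 0.08 (adjusted p = 0.00775). The rise with both drugs against DMSO was 0.30 ± 0.08 (adjusted p = 0.00377) and turned to -0.06 ± 0.06 after the GC correction (adjusted p = 0.421). The rise with BEZ-235 was 0.20 ± 0.08 (adjusted p = 0.0417), and it was lost without any single library other than DMSO replicate 2 and BEZ-235 replicate 3 (10 of 12, adjusted p = 0.0507 to 0.275). The difference between the combination and BEZ-235, 0.09 ± 0.08 as deposited (adjusted p = 0.338), was -0.33 ± 0.06 after the correction (adjusted p = 2.92e-04). Against SAHA alone the combination was higher by 0.58 ± 0.08 (adjusted p = 1.10e-05), or 0.27 ± 0.06 after the correction (adjusted p = 0.0014). The interaction of 0.38 ± 0.11 (adjusted p = 0.0141) came to 0.01 ± 0.09 with it (adjusted p = 0.965) and was not called without BEZ-235 replicate 3 (adjusted p = 0.0511). The antisense gene ABALON was at 2.64% of the level of BCL2L1 in the combination, 1.34% with BEZ-235, 1.65% with SAHA and 1.00% in DMSO.

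MCL1 (ENSG00000143384, chromosome 1, 150574551 to 150579738, minus strand) encodes a pro-survival protein with a short half-life and had the highest level per kilobase of the longest transcript of the 10 genes in every group. By mean transcript length BMF stood above it in the combination, at 179.0 ± 3.38 against 99.1 ± 3.31 CPM per kilobase (SD, n = 3). It stood at 250.5, 234.4 and 241.0 CPM in the combination, 281.0, 316.1 and 332.0 CPM with BEZ-235, 319.8, 333.6 and 378.5 CPM with SAHA, and 385.6, 385.0 and 394.2 CPM in DMSO. The combination was lowest and DMSO highest, and the single drugs overlapped between them. MCL1 fell with both drugs (-0.68 ± 0.08, adjusted p = 1.91e-06) and with BEZ-235 (-0.33 ± 0.08, adjusted p = 0.00331). With SAHA it was at -0.17 ± 0.08 (adjusted p = 0.0963) and was called after the GC correction (-0.31 ± 0.07, adjusted p = 0.00164) or without SAHA replicate 3 (-0.25, adjusted p = 0.0313). The combination was lower than either single drug, at -0.36 ± 0.08 against BEZ-235 (adjusted p = 0.00141) and -0.51 ± 0.08 against SAHA (adjusted p = 6.10e-05), and the interaction of -0.18 ± 0.12 did not pass (adjusted p = 0.232).

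Both effector genes were lower with the single drugs. BAX (ENSG00000087088, chromosome 19, 48954815 to 48961798, plus strand), whose protein moves from the cytosol to mitochondria, stood at 25.1, 26.3 and 29.0 CPM in the combination, 25.0, 22.3 and 18.7 CPM with BEZ-235, 30.7, 32.2 and 33.0 CPM with SAHA, and 41.9, 44.4 and 38.8 CPM in DMSO. All groups stood apart, although the combination and BEZ-235 nearly met. BAX fell against DMSO with both drugs (-0.64 ± 0.10, adjusted p = 4.43e-05), with BEZ-235 (-0.93 ± 0.10, adjusted p = 1.72e-06) and with SAHA (-0.38 ± 0.10, adjusted p = 0.00559). The fall with both drugs was -1.08 ± 0.07 after the GC correction (adjusted p = 8.64e-10), and that against SAHA was -0.71 ± 0.07 (adjusted p = 3.50e-07) in place of -0.25 ± 0.10 as deposited (adjusted p = 0.0417). The deposited difference from SAHA was lost without SAHA replicate 2 or 3 or combination replicate 1 or 2 (adjusted p = 0.0681 to 0.106). The difference of the combination from BEZ-235 changed sign, at 0.29 ± 0.11 as deposited (adjusted p = 0.026) and -0.19 ± 0.08 corrected (adjusted p = 0.0453), and the deposited call was lost without BEZ-235 replicate 2 or 3 or combination replicate 3 (adjusted p = 0.0578 to 0.168). The interaction of 0.67 ± 0.15 (adjusted p = 0.00213) was 0.18 ± 0.10 corrected (adjusted p = 0.238).

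BAK1 (ENSG00000030110, chromosome 6, 33572547 to 33580293, minus strand), whose protein sits in the mitochondrial membrane already, was the member with the most overlap between groups. It stood at 23.3, 19.9 and 26.6 CPM in the combination, 19.2, 18.3 and 19.1 CPM with BEZ-235, 18.8, 21.5 and 21.0 CPM with SAHA, and 25.9, 30.1 and 22.2 CPM in DMSO. BEZ-235 and SAHA lay below DMSO, and the combination overlapped DMSO and SAHA. The falls were -0.46 ± 0.12 with BEZ-235 (adjusted p = 0.0044) and -0.34 ± 0.12 with SAHA (adjusted p = 0.0269), the second of which was lost without DMSO replicate 1 or 2 or SAHA replicate 1 (adjusted p = 0.0655 to 0.162). With both drugs the deposited change of -0.16 became -0.57 ± 0.11 after the GC correction and was then called (adjusted p = 1.50e-04). Against BEZ-235 the combination was at 0.30 ± 0.12 (adjusted p = 0.0421), which turned to -0.20 ± 0.11 with the correction (adjusted p = 0.123) and was lost without any single library other than DMSO replicate 2 or 3, SAHA replicate 1 and combination replicate 2 (8 of 12, adjusted p = 0.0527 to 0.204). Against SAHA it was at 0.18 ± 0.12 (adjusted p = 0.195), and at -0.23 ± 0.11 with the correction (adjusted p = 0.0757). The interaction of 0.65 ± 0.17 (adjusted p = 0.00704) was 0.14 ± 0.15 corrected (adjusted p = 0.576). Reads of the pseudogene BAK1P1 reached at most 1.14% of the level of BAK1.

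**Figure D2:**
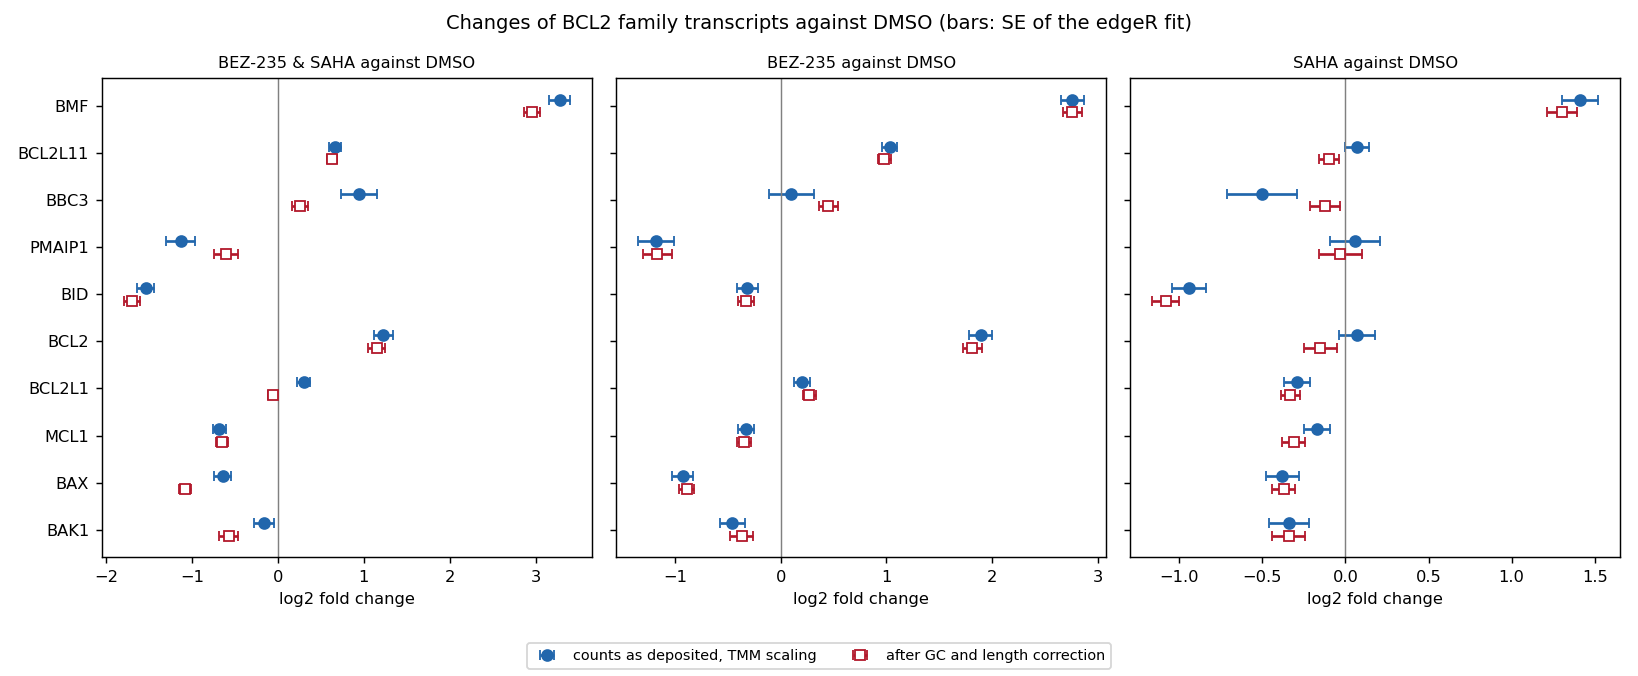
Log2 fold changes of the 10 genes against DMSO (horizontal axes, 1 panel per treatment, bars SE), with filled circles for the counts as deposited and open squares after the GC and length correction. BMF lies furthest to the right in each panel, at 3.28, 2.76 and 1.41 as deposited, and the 2 markers part most in the combination, as for BBC3 (0.94 and 0.26) and BAX (-0.64 and -1.08).

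Set side by side, SAHA added to BEZ-235 had 8 of 10 members called, against 58.0% of all tested genes, with 4 higher (29.5% of all genes) and 4 lower (28.5%), and 8 whose libraries did not overlap (62.0%). BMF, BBC3, BAX and BAK1 were higher and BID, BCL2, BCL2L11 and MCL1 were lower as deposited. After the GC correction 8 were called as well, but 2 were higher, BMF and PMAIP1, and 6 were lower. Only BMF was called higher in both fits, and BID, BCL2, BCL2L11 and MCL1 were called lower in both. BEZ-235 added to SAHA had 9 members called, 5 higher and 4 lower, in both fits, where 58.8% of all tested genes were called as deposited, 29.9% higher and 28.9% lower. The libraries did not overlap for 9 members (63.0% of all genes). The interaction was called for 7 members as deposited, 4 higher (18.9% of all genes) and 3 lower (19.6%), where 38.4% of all tested genes were called in all, and for 3 after the correction. BMF and BCL2 were called below 0 in both fits, and PMAIP1 at 0.60 ± 0.20 passed in the corrected fit alone (adjusted p = 0.0487). Over all genes, the correction took the interaction calls to 1751 higher and 1527 lower, against 3355 higher and 3479 lower as deposited. It moved those of SAHA against DMSO to 3473 higher and 5785 lower (3945 and 3713 as deposited) and those of the combination against BEZ-235 to 4186 and 5808 (5246 and 5059). Upper quartile scaling moved the combination against DMSO to 6839 higher and 4634 lower (5899 and 5552 with TMM), with a median over all genes of 0.15 in place of 0.03.

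**Figure D3:**
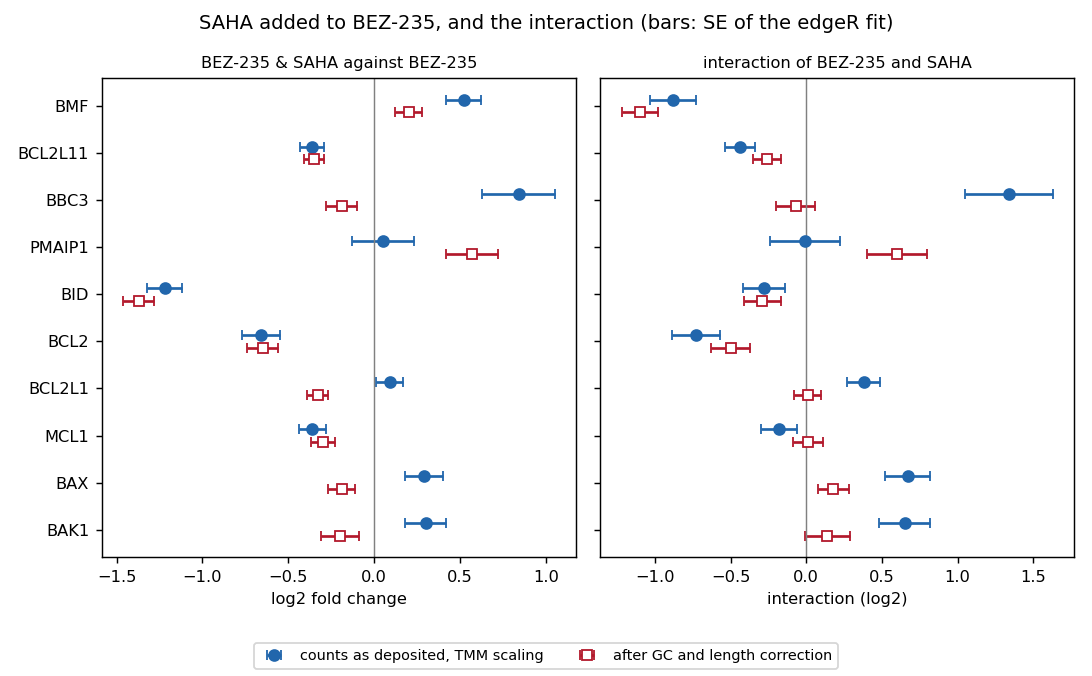
SAHA added to BEZ-235 (left, log2 fold change) and the interaction of the drugs (right, log2), with bars for the SE, filled circles for the counts as deposited and open squares after the GC and length correction. BID, BCL2, BCL2L11 and MCL1 stay left of 0 in the left panel under both fits, BBC3, BAX and BAK1 change sides, and in the right panel BMF stays furthest left (-0.88 and -1.10).

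Levels of different genes were compared as CPM per kilobase of the longest transcript. On this scale, in DMSO, MCL1 (98.7 ± 1.30, SD, n = 3) stood above BAX (30.7 ± 2.06), BID (25.7 ± 3.52) and BCL2L1 (25.4 ± 1.67), and BMF (5.46 ± 0.757) and BCL2 (2.82 ± 0.321) were the lowest. In the combination BMF, at 53.3 ± 1.01, was the second highest after MCL1 at 61.5 ± 2.06. BMF was also the second highest with BEZ-235, at 37.0 ± 2.99, and the fourth highest with SAHA, at 14.5 ± 2.13. These ranks depend on the length used. By mean transcript length BMF stood at 18.3 ± 2.54 in DMSO, above BAK1 (12.1 ± 1.82), PMAIP1 (10.5 ± 0.798) and BBC3 (8.91 ± 1.79). With SAHA it was then the second highest, at 48.9 ± 7.14 against 45.7 ± 1.69 for BAX. By the longest transcript, BMF made up 55.8 ± 1.64% of the summed BH3-only level in the combination and 41.5 ± 1.48% with BEZ-235. Its share was 28.4 ± 3.66% with SAHA and 9.78 ± 0.777% in DMSO. The share of BID took the opposite course, with 9.27 ± 1.09% in the combination, 23.0 ± 0.447% with BEZ-235, 26.2 ± 0.944% with SAHA and 45.9 ± 1.76% in DMSO. Shares of the same sum depend on each other, so a larger share of BMF lowers the others. The BID level itself was 8.82 ± 0.614 in the combination and 20.5 ± 0.984 with BEZ-235. With SAHA it was lower than with BEZ-235, at 13.4 ± 0.850, and in DMSO it was 25.7 ± 3.52.

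The summed level of the 5 BH3-only genes was 95.5 ± 4.60 CPM per kilobase in the combination, 89.2 ± 4.89 with BEZ-235, 51.2 ± 2.40 with SAHA and 55.8 ± 5.45 in DMSO (SD, n = 3 each). That of the 3 pro-survival genes was 99.4 ± 3.16 in the combination, 118.6 ± 4.04 with BEZ-235, 111.3 ± 7.64 with SAHA and 127.0 ± 1.05 in DMSO. For the effectors the sums were 30.3 ± 2.71 in the combination, 24.7 ± 2.37 with BEZ-235, 32.8 ± 1.46 with SAHA and 42.5 ± 3.84 in DMSO. By these means the BH3-only sum was higher in the groups with BEZ-235 than in those without it, and the pro-survival and effector sums were lower in every treated group than in DMSO. MCL1 supplied most of the pro-survival sum, 61.9 ± 0.107% in the combination, 66.4 ± 3.55% with BEZ-235, 78.5 ± 1.58% with SAHA and 77.8 ± 1.11% in DMSO, and BCL2 at most 8.85 ± 0.912%, with BEZ-235.

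**Figure D4:**
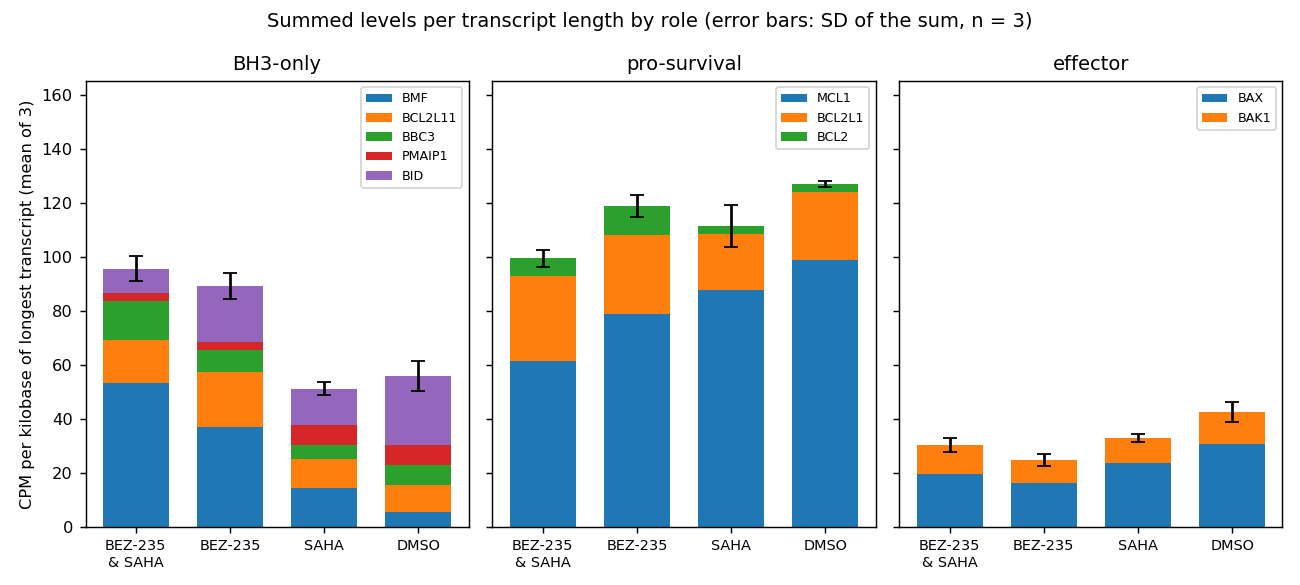
Summed levels in CPM per kilobase of the longest transcript (vertical axis from 0, mean of 3 libraries) of the BH3-only, pro-survival and effector genes in the 4 groups, with a colour per gene and error bars for the SD of the sum. The BH3-only bars reach 95.5 in the combination and 55.8 in DMSO. Between these, BMF is the part that grows most and BID the part that shrinks most. BCL2L11 and BBC3 also grow, and PMAIP1 also shrinks. The pro-survival bars reach 99.4 in the combination and 127.0 in DMSO.

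The ratio of the BH3-only sum to the pro-survival sum was 0.885, 0.989 and 1.01 in the combination libraries, 0.826, 0.727 and 0.707 with BEZ-235, 0.499, 0.445 and 0.440 with SAHA, and 0.424, 0.485 and 0.408 in DMSO. The combination lay above BEZ-235 and both above the other groups, and SAHA overlapped DMSO. These are descriptions of genes chosen for their roles, with no test. On the log2 scale the mean ratio was above that in DMSO by 1.13 in the combination, 0.78 with BEZ-235 and 0.07 with SAHA. This order rests on summed levels, in which the genes with the highest levels weigh most. When each gene counted equally, as a mean of log2 levels, the differences from DMSO were 0.16, -0.11 and 0.15, and without MCL1 they were 0.35, 0.19 and 0.13. After the GC correction the ratio of sums was 0.852 to 0.880 in the combination and 0.746 to 0.834 with BEZ-235. Their mean log2 ratios then lay closer together, at -0.21 and -0.36, against -0.06 and -0.41 as deposited. The ratio of the effectors to the pro-survival genes was 0.283, 0.294 and 0.337 in the combination, 0.236, 0.209 and 0.182 with BEZ-235, 0.296, 0.308 and 0.282 with SAHA, and 0.338, 0.362 and 0.303 in DMSO. BEZ-235 alone was below all other groups, which overlapped each other. After the GC correction the ratio was 0.234 to 0.254 in the combination, 0.213 to 0.236 with BEZ-235, 0.324 to 0.348 with SAHA and 0.337 to 0.355 in DMSO. The combination then overlapped BEZ-235 and lay below SAHA and DMSO, with a log2 difference from DMSO of -0.49 in place of -0.14.

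Ratios of single pairs of genes were taken on the same scale. The ratio of BMF to BCL2 was 8.03 ± 0.604 in the combination, 3.54 ± 0.212 with BEZ-235, 4.86 ± 0.0975 with SAHA and 1.94 ± 0.275 in DMSO (SD, n = 3 each). It was higher in each SAHA library (4.75 to 4.94) than in any BEZ-235 library (3.30 to 3.69), and BCL2 was higher with BEZ-235 as well. BMF to MCL1 was 0.867 ± 0.0407 in the combination, 0.474 ± 0.0762 with BEZ-235, 0.168 ± 0.0367 with SAHA and 0.0553 ± 0.00787 in DMSO. BCL2L11 to BCL2 ran the other way, at 2.39 ± 0.167 in the combination, 1.95 ± 0.0898 with BEZ-235, 3.54 ± 0.273 with SAHA and 3.57 ± 0.505 in DMSO. Its highest values were in the groups without BEZ-235, in which BCL2 was low. BAX to BCL2 was 2.98 ± 0.389 in the combination, 1.56 ± 0.285 with BEZ-235, 7.99 ± 1.33 with SAHA and 11.0 ± 1.71 in DMSO. PMAIP1 to MCL1 was 0.0537 ± 0.00728 in the combination, 0.0403 ± 0.00477 with BEZ-235, 0.0850 ± 0.0113 with SAHA and 0.0732 ± 0.00464 in DMSO. These pair ratios were not corrected for GC content. After the GC correction, PMAIP1 and MCL1 fell alike with both drugs against DMSO (log2 -0.60 ± 0.14 and -0.65 ± 0.07). Between the combination and BEZ-235, corrected changes were 0.57 ± 0.15 for PMAIP1, -0.30 ± 0.07 for MCL1, 0.20 ± 0.08 for BMF and -0.65 ± 0.09 for BCL2.

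The genes most like BMF across the 12 libraries were ranked by the root mean square difference of log2 CPM, each gene centred on its own mean, among the 10391 named genes whose mean log2 CPM reached 3. PIM1, a serine/threonine kinase gene, was closest at 0.26, and DEPP1 (0.29), SCUBE1 (0.36) and the long noncoding RNA gene SRP14-AS1 (0.36) were also among the 5 closest. PIM1 stood at 134.4 ± 10.4 CPM in the combination, 77.9 ± 2.29 CPM with BEZ-235, 45.0 ± 0.559 CPM with SAHA and 16.9 ± 1.58 CPM in DMSO (SD, n = 3 each). SRP14-AS1 lies near BMF on chromosome 15, at 40039311 to 40067290 on the plus strand, with 20599 bases between them. It stood at 24.0 ± 2.08 CPM in the combination, 12.6 ± 0.993 CPM with BEZ-235, 8.46 ± 1.78 CPM with SAHA and 3.27 ± 0.216 CPM in DMSO. No other member came close to BMF: BCL2 was the nearest at 0.75 and PMAIP1 the furthest at 1.84, while the most alike pair among the members was BAX and BAK1 at 0.26.

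Of 13 other genes of the family, 9 were tested. With both drugs 5 were higher and 1 was lower, where 33.2% of all tested genes were higher and 31.2% lower, and their median change was 0.33 against 0.03 over all genes. With BEZ-235 2 were higher and 1 lower (25.5% and 25.4% of all genes, medians -0.01 and 0.02), and with SAHA 3 were higher and 1 lower (22.2% and 20.9% of all genes, medians -0.11 and -0.01). BAD, a BH3-only gene whose protein is kept inactive by AKT phosphorylation, averaged 28.5 ± 5.63 CPM in the combination and 15.2 ± 3.49 CPM in DMSO (SD, n = 3 each), a rise of 0.91 ± 0.17 (adjusted p = 1.83e-04) that was 0.28 after the GC correction. BCL2L2, a pro-survival gene, rose by 0.41 ± 0.07 with both drugs (adjusted p = 1.47e-04, 0.19 after the correction) and by 0.21 ± 0.08 with BEZ-235 (adjusted p = 0.0306). BNIP3 and BNIP3L, genes of mitophagy receptors, rose by 0.46 ± 0.08 (BNIP3, both drugs, adjusted p = 9.99e-05, 0.26 after the correction) and by 0.56 ± 0.11 (BNIP3L, BEZ-235, adjusted p = 4.06e-04). BCL2L12 was called lower with every treatment, at -1.04 ± 0.18 with both drugs, -1.28 ± 0.18 with BEZ-235 and -0.43 ± 0.17 with SAHA (adjusted p = 8.77e-05, 2.18e-05 and 0.0488). BCL2A1, BCL2L10, BCL2L14 and BIK had too few counts to be tested.

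Downstream of mitochondria, 21 of 25 genes of the apoptosome, the caspases and their inhibitors were tested. With both drugs 4 were higher and 13 lower, against 33.2% higher and 31.2% lower over all genes, with a median of -0.43 against 0.03. With BEZ-235 3 were higher and 11 lower (25.5% and 25.4% of all genes, median -0.27 against 0.02), and with SAHA 4 were higher and 5 lower (22.2% and 20.9%, median 0.01 against -0.01). The lower genes held both promoters and inhibitors of death. BIRC5, which encodes survivin and is expressed mainly in dividing cells, changed by -2.34 ± 0.11 with both drugs (adjusted p = 4.03e-11) and by -2.10 ± 0.11 with BEZ-235 (adjusted p = 2.28e-10). CYCS, which encodes the cytochrome c that forms the apoptosome, changed by -1.37 ± 0.12 with both drugs (adjusted p = 4.42e-08). CFLAR, whose product blocks caspase-8, rose with BEZ-235 (0.72 ± 0.11, adjusted p = 3.30e-05) and fell with SAHA (-0.82 ± 0.11, adjusted p = 1.30e-05). In the combination it averaged 45.2 ± 4.38 CPM, near the 46.6 ± 3.99 CPM with SAHA. The CFLAR level was 136.0 ± 12.1 CPM with BEZ-235 and 82.8 ± 11.5 CPM in DMSO (SD, n = 3 each). CASP9, the initiator caspase of the apoptosome, was at 0.80 ± 0.14 with both drugs and 0.76 ± 0.14 with BEZ-235 (adjusted p = 8.83e-05 and 2.48e-04).

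The 16 genes that regulate or partner BCL2 proteins were all tested. With both drugs 5 were higher and 7 lower (33.2% and 31.2% of all genes, median -0.06 against 0.03), with BEZ-235 5 and 5 (25.5% and 25.4%, median -0.03 against 0.02), and with SAHA 4 and 4 (22.2% and 20.9%, median -0.11 against -0.01). The shares higher with both drugs and with SAHA lay near those of all genes. ATF4, a transcription factor of the integrated stress response, averaged 991.7 ± 76.9 CPM in the combination, 953.4 ± 32.8 CPM with BEZ-235 and 255.5 ± 25.3 CPM in DMSO (SD, n = 3 each), a rise of 1.96 ± 0.09 and 1.90 ± 0.09 (adjusted p = 2.59e-11 and 6.55e-11). DDIT3, which encodes CHOP, rose by 2.11 ± 0.11 with both drugs and 1.72 ± 0.11 with BEZ-235 (adjusted p = 9.97e-11 and 2.32e-09). Among the forkhead genes, FOXO4 rose by 1.92 ± 0.11 with both drugs (adjusted p = 2.46e-10) and 0.97 ± 0.11 with SAHA (adjusted p = 2.80e-06). With BEZ-235 alone FOXO4 averaged 11.4 ± 0.292 CPM, near the 11.9 ± 0.632 CPM with SAHA. Its level was 6.04 ± 0.627 CPM in DMSO (SD, n = 3 each). FOXO3 rose by 0.59 ± 0.07 with BEZ-235 (adjusted p = 3.93e-06). E2F1 changed by -3.47 ± 0.12 with both drugs, -3.32 ± 0.12 with BEZ-235 and -0.39 ± 0.10 with SAHA (adjusted p = 8.04e-13, 2.54e-12 and 0.00435). DYNLL2, the dynein light chain that anchors BMF, rose by 0.27 ± 0.07 with SAHA (adjusted p = 0.00437) and was at 0.07 and not called after the GC correction (adjusted p = 0.408). MDM2, an E3 ubiquitin ligase gene, changed by -1.01 ± 0.10 with both drugs (adjusted p = 1.20e-07).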

How the data were processed

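Polyadenylated RNA of 12 NB-1 cultures was measured in 4 groups of 3. The deposited table holds expected counts, estimated reads per gene for 58051 Ensembl genes with no scaling in the deposited values. Per the submitters' processing notes, STAR aligned the reads and RSEM counted them, with hg38 as the build. Their versions, the annotation and the strand setting were not given in the sources used here. Rounding gave whole numbers from the expected counts. Symbols, positions, transcript length and GC content came from GENCODE release 29, which held 57447 of the identifiers, and promoter windows from RefSeq (GRCh38.p14).

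In edgeR 4.0.16 (R 4.3.3), 1 model of 4 group means was fitted to all 12 libraries, leaving 8 residual degrees of freedom, with TMM scaling, filterByExpr (17774 genes left) and the quasi-likelihood test, 2-sided, with Benjamini-Hochberg adjustment over all genes tested. The script was tested on simulated data. Comparisons were each treatment against DMSO, both drugs against each drug, and the interaction. Replicate correlations were 0.978 to 0.992 and the biological coefficient of variation was 10.6%. Counting error adds to this spread, most for the lowest counts, those of PMAIP1 (from 91). Ratios between roles use CPM per kilobase of the longest transcript and are described without tests.

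The members and lists were chosen with earlier results of these data known. Named genes were the 10 members, from each other list up to 3 genes per direction with the smallest p against DMSO, and the 5 genes most like BMF. Of these, the text gives a part. Alternatives tried were relative log expression and upper quartile scaling, DESeq2 1.42.0, unrounded counts, a filter at a mean CPM of 1 and none, the replicate number as a block, a correction for GC content and length, fits without the groups outside a comparison, and leaving out each library. For the ratios, mean transcript length, mean log2 levels and a sum without MCL1 were tried.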

Additional observations from a re-analysis of the deposited data

Results flagged for a closer look

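For 7 of the 10 members the effect of SAHA differed with and without BEZ-235 by the edgeR interaction test, which called 38.4% of all tested genes. The differences on the log2 scale were -0.88 for BMF, -0.44 for BCL2L11, 1.34 for BBC3, -0.73 for BCL2, 0.38 for BCL2L1, 0.67 for BAX and 0.65 for BAK1. After the GC and length correction they were -1.10 for BMF, -0.26 for BCL2L11, -0.07 for BBC3, -0.50 for BCL2, 0.01 for BCL2L1, 0.18 for BAX and 0.14 for BAK1, and those of BMF and BCL2 were still called. The 4 positive ones belong to members with 56.9 to 69.7% GC in the longest transcript, and the 3 negative ones to members with 45.6 to 54.8%. Relative to each gene's mean over the 12 libraries, counts rose with GC content in the combination libraries and not in the others. What part of the deposited values this accounts for was not tested beyond the corrected values.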

How the results depend on the processing

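The counts of members called moved to 4 to 10 over the comparisons other than the interaction and stayed within 1.5 times of the deposited counts under every alternative. Leaving out each library in turn gave 9 to 9 members called for both drugs against DMSO, 8 to 9 for BEZ-235, 4 to 6 for SAHA, 6 to 8 for both drugs against BEZ-235, 8 to 9 against SAHA and 6 to 8 for the interaction. In the same order, 64.4%, 50.9%, 43.1%, 58.0%, 58.8% and 38.4% of all tested genes were called with all libraries kept. The GC and length correction called 3 members in the interaction against 7 as deposited, and 3278 of all genes (2784 with the block) against 6834. It turned signs, with the same value with and without the block: BCL2L1 for both drugs was -0.06 against DMSO and -0.33 against BEZ-235, BBC3, BAX and BAK1 against BEZ-235 were -0.19, -0.19 and -0.20, and the interaction of BBC3 was -0.07. The interaction of PMAIP1 was 0.60 and with the block 0.62. Replicate numbers did not pair the libraries (correlations of same-numbered deviations -0.164 to 0.128 over 18 pairs, with 1 of 12 libraries closest to its own number). The replicate block called 9, 8, 5, 7, 8 and 7 members in the 6 comparisons as ordered above, and lost BCL2L1 with BEZ-235 (adjusted p = 0.0626), BAK1 for both drugs against BEZ-235 (0.0656) and BAX against SAHA (0.065). With the correction and the block, BMF for both drugs against BEZ-235 was not called (0.0744). Differences from DMSO in the log2 ratio of BH3-only to pro-survival genes were 1.13, 0.78 and 0.07 for both drugs, BEZ-235 and SAHA, and became 1.60, 1.16 and 0.32 by mean transcript length, 0.16, -0.11 and 0.15 by mean log2 levels, 0.35, 0.19 and 0.13 without MCL1, and 0.98 for both drugs with the correction. Those of effectors to pro-survival genes, -0.14, -0.68 and -0.18, became -0.69 and -1.28 for both drugs and BEZ-235 by mean log2 levels, -0.91 and -1.28 without MCL1, and -0.49 for both drugs and -0.06 for SAHA with the correction. Beyond the corrected values, the cause was not tested. Depth limits PMAIP1 most, with 91 to 158 counts in the BEZ-235 libraries.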
